A study of Mus musculus with 12 samples.

Results

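The genes described here are 10 genes of the small blood vessels of muscle, chosen by name: Kdr, Flt1, Cdh5, Pecam1, Tek, Angpt1, Vegfa, Vegfb, Rgs5 and Pdgfrb. All 10 were in the table of 22390 features, and all 10 passed the filter on low values that left 10666 genes for testing. RNA was sequenced from muscle of male db/db mice on the C57BL/KsJ background, 8 weeks old when the interventions began. Mutation of the leptin receptor makes db/db mice obese and diabetic. There were 3 libraries in each of 4 groups over the 8 weeks: controls kept under normal rearing, high-intensity interval training (HIIT), semaglutide, and the combination of both. HIIT meant treadmill running in 10 bouts of 4 min at 85 to 90% of top speed with 2 min of recovery, on 5 days a week. Semaglutide, a drug that activates the receptor of the gut hormone GLP-1, was injected under the skin, at 30 nmol/kg daily per the protocol and at 0.05 mg/kg per the sample titles. All mice carried the db/db genotype, so there was no lean reference. The labels name no injection for the control and HIIT groups, so effects of the drug and of being injected cannot be told apart. The labels call the tissue muscle, and the protocol names soleus among the tissues taken. The fast myosin Myh4 was at 4669 to 8898 FPKM and the slow myosin Myh7 at 5.27 to 108 FPKM over the 12 libraries, which is a fast-muscle pattern.

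Endothelial cells line the vessels and are guided by 2 families of signals. VEGF ligands made by muscle fibres and other cells act on the receptor tyrosine kinases VEGFR1 (Flt1) and VEGFR2 (Kdr), of which VEGFR2 carries most of the growth signal and VEGFR1 binds VEGF-A tightly and passes on little of it. Angiopoietin-1 (Angpt1), made by cells around the vessel, acts on the endothelial receptor Tie2 (Tek) and keeps vessels quiet and tight. Pericytes sit on the outside of capillaries, and they are recruited through the PDGF receptor beta (Pdgfrb). Training is known to raise VEGF-A and capillary number in muscle.

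The promoters of Kdr and Flt1 are shown because the levels of these 2 VEGF receptors moved apart, and those of Tek and Rgs5 because their levels fell with Kdr. RefSeq start sites on GRCm38.p6 matched 6 of the 10 genes: Kdr, Flt1, Tek, Rgs5, Vegfa and Vegfb. Angpt1 and Cdh5, which also fell, were not matched. The authors' build was GRCm39, so these windows are context and no value was read by coordinate. Each window holds the 250 bases before the start site, 5′ to 3′ on the gene's strand: Kdr at chr5:75978456-75978705 (minus strand), Flt1 at chr5:147726012-147726261 (minus), Tek at chr4:94739039-94739288 (plus) and Rgs5 at chr1:169655251-169655500 (plus). Capitals mark matches on either strand to GGAAG, a core bound by ETS factors such as Erg, to GGGCGG, the GC box, and to ACGTG, the hypoxia response core.
Kdr: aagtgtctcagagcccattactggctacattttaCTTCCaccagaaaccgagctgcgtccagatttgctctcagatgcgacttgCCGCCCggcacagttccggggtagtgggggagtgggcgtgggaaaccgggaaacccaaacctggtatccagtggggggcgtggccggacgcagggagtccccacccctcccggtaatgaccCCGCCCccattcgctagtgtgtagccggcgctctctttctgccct
Flt1: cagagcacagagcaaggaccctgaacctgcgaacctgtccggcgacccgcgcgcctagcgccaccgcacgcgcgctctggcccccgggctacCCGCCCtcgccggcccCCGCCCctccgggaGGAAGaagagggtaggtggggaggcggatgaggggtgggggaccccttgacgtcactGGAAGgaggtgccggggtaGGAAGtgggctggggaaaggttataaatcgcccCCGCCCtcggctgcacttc
Tek: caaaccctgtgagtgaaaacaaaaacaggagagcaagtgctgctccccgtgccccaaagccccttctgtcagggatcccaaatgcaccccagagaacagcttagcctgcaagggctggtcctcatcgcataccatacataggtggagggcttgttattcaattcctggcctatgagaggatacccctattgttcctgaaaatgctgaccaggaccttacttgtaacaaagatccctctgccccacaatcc
Rgs5: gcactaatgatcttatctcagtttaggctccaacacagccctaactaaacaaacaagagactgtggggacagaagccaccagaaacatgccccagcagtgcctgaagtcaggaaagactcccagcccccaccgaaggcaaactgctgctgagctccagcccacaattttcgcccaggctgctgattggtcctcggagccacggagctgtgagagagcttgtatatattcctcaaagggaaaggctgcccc
The Kdr window held 1 match to GGAAG and 2 GC boxes, and the Flt1 window held 3 and 3. The Tek and Rgs5 windows held 0 matches to any of the 3 motifs. A window at the second Vegfa start site, not shown, held 1 match to ACGTG. Of all 32851 promoter windows of this length, 64.1% held GGAAG, 32.7% a GC box and 16.6% ACGTG, so these matches are common and describe the letters only. GC content was 61.6% in the Kdr window, 70.4% in Flt1, 51.2% in Tek and 53.6% in Rgs5, against a median of 52.4%.

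Levels are deposited FPKM, which are fragments per kilobase of transcript scaled to library depth, so levels can be set against each other between genes. Averaged over the 12 libraries (mean ± SD, n = 12), Rgs5 stood at 56.0 ± 9.17 FPKM, Vegfb at 55.9 ± 8.89 and Vegfa at 45.0 ± 13.7. Next came the endothelial genes Pecam1 at 21.7 ± 2.99 FPKM, Cdh5 at 13.2 ± 2.85 and Flt1 at 9.22 ± 1.32. Pdgfrb at 6.40 ± 1.58, Kdr at 5.64 ± 2.05, Tek at 3.62 ± 0.80 and Angpt1 at 1.96 ± 0.95 FPKM were lowest. Neighbours in this order overlapped within 1 SD, except Vegfa with Pecam1 and Pecam1 with Cdh5. The highest library was 4.74 times the lowest for Angpt1, 3.13 times for Vegfa, 3.05 times for Kdr and 2.42 times for Pdgfrb, and 1.62 to 1.92 times for the other 6. Angpt1 reached 1 FPKM in 10 of the 12 libraries and the other 9 genes in all of them. The thinnest values still rested on about 61.8 fragments for Angpt1 and 227 for Tek, estimated from library depths of 17.2 to 21.3 M fragments. In such bulk samples, fewer cells of a type and less RNA per cell cannot be told apart.

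**Figure D1:**
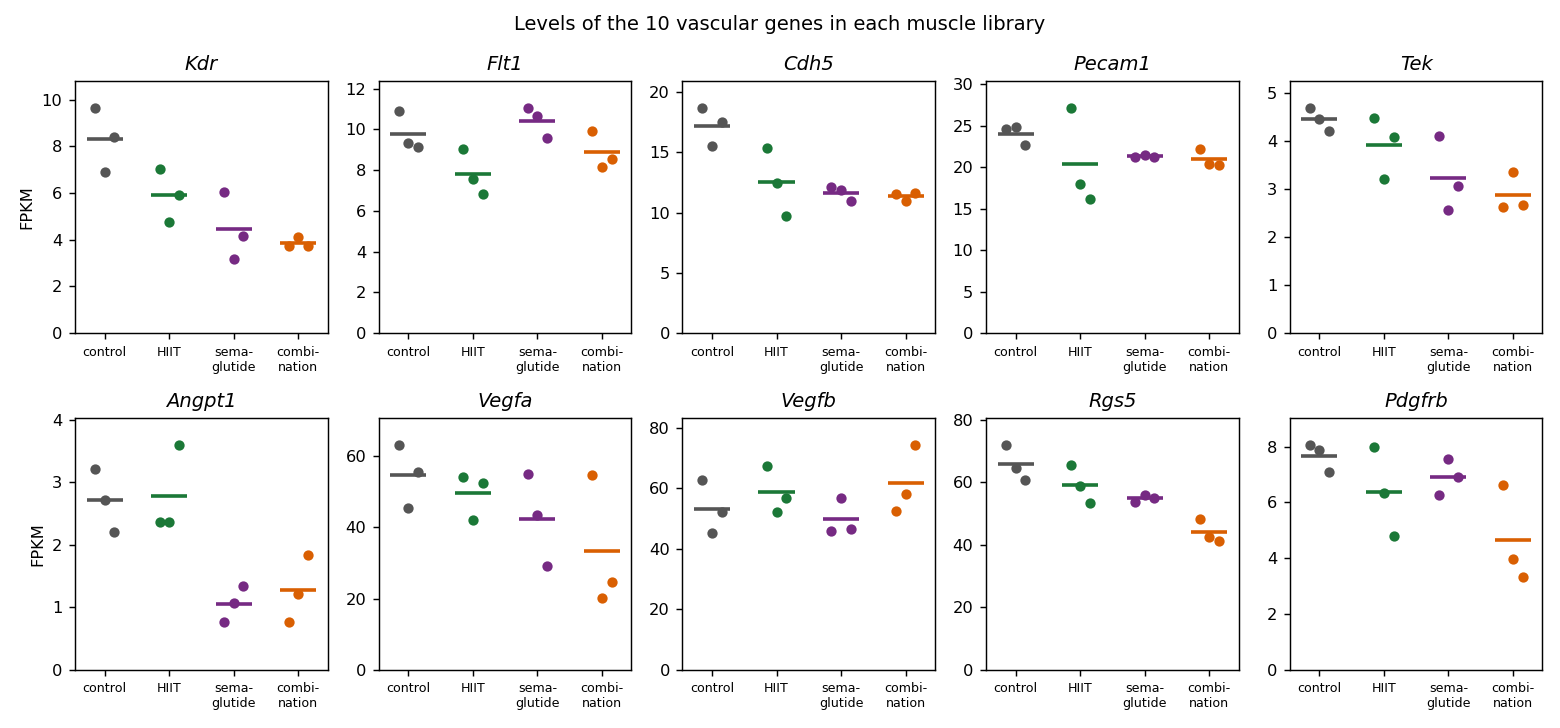
FPKM of each of the 10 genes (vertical axes, starting at 0) in the 12 libraries, 1 point per library and a bar at the group mean of 3. The 6 libraries with semaglutide lie below the 6 without for Angpt1, and the 2 groups with semaglutide have the lowest means for Kdr, Tek and Rgs5, while Flt1 and Vegfb show no such order.

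The libraries also differed in what other tissue they held. The 8 hepatocyte markers summed to 174 to 1216 FPKM in controls, 6.41 to 329 after HIIT, 1.64 to 6.40 after semaglutide and 1.53 to 6.67 in the combination, and the 3 highest sums were those of control replicates 2 and 1 and HIIT replicate 1. The 6 markers of liver sinusoidal endothelium summed to only 2.33 to 6.38 FPKM over all libraries. Slow-fibre markers (8 genes) summed to 899 to 1779 FPKM in controls, 227 to 767 after HIIT, 363 to 1103 after semaglutide and 189 to 922 in the combination. Fibroblast markers (7 genes) summed to 185 to 295, 222 to 470, 178 to 189 and 173 to 257 FPKM in the same order, and white adipocyte markers (8 genes) to 242 to 895, 574 to 938, 122 to 411 and 175 to 713. None of the 28 endothelial markers was at 0 in any library, and none of the 12 pericyte markers.

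**Figure D2:**
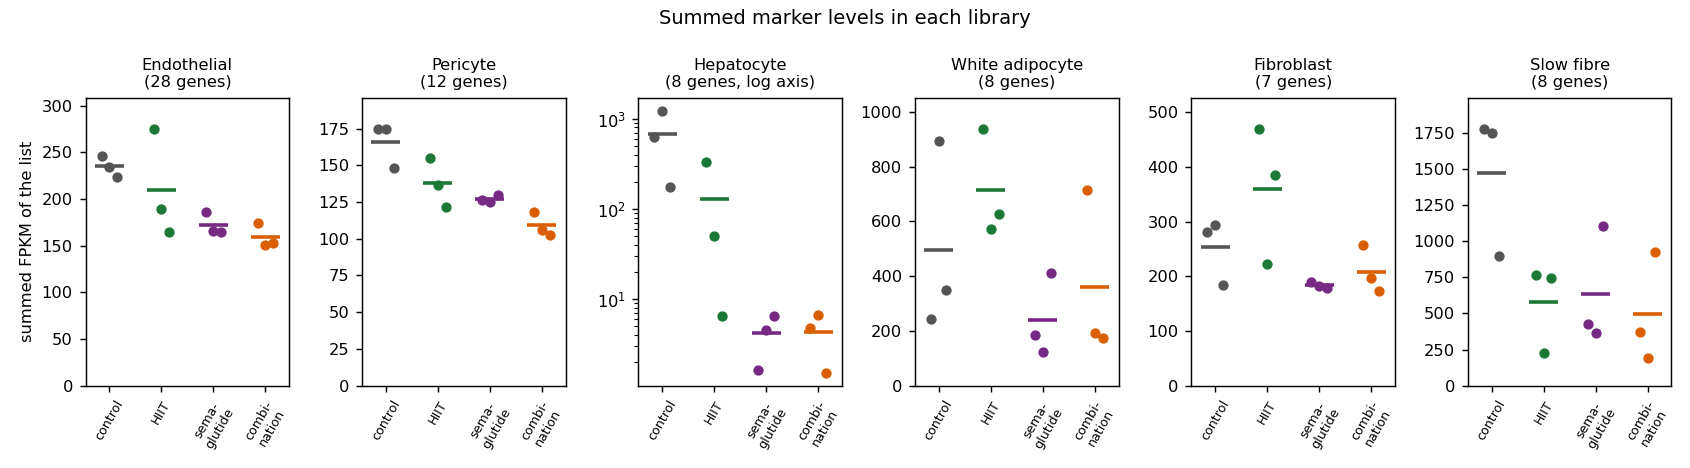
Summed FPKM of marker lists (vertical axes, log scale for the hepatocyte list) in each library, with a bar at the group mean. Endothelial and pericyte sums are lower in the 2 groups with semaglutide than in controls, and so are hepatocyte sums, which reach 1216 FPKM in 1 control.

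Among the VEGF ligands, Vegfa, the main growth signal for capillaries, was at 63.2, 45.5 and 55.5 FPKM in the 3 controls and at 54.1, 42.2 and 52.5 after HIIT. It was at 54.9, 43.4 and 29.1 FPKM after semaglutide and at 54.8, 20.2 and 24.7 in the combination. Semaglutide replicate 3 and combination replicates 2 and 3 were low. Semaglutide replicate 2 was just under the lowest control, and replicate 1 of each of these groups lay among the controls. The difference with semaglutide, averaged over trained and untrained mice, was -0.54 ± 0.23 in log2(FPKM + 1) (limma standard error, 3 libraries a group) and did not pass the threshold (limma adjusted p = 0.131). Without combination replicate 1 it was -0.75 and passed (limma adjusted p = 0.0129). Calls over all genes also moved with the library left out, and their share in that fit is not given here. For HIIT against control it was -0.14 ± 0.33 (limma adjusted p = 0.927), so no rise of Vegfa with training was detected in these libraries. Vegfb, a VEGFR1 ligand tied to fatty acid use in muscle, was at 62.7, 45.2 and 52.0 FPKM in controls and 67.5, 52.4 and 57.0 after HIIT. It stood at 46.0, 56.9 and 46.6 FPKM after semaglutide and at 52.5, 58.0 and 74.5 in the combination, and the groups overlapped throughout. Its semaglutide difference was -0.017 ± 0.11 (limma adjusted p = 0.929).

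Angpt1, the Tie2 ligand, showed the clearest separation. It was at 3.22, 2.72 and 2.20 FPKM in controls, 2.37, 2.36 and 3.604 after HIIT, 0.765, 1.07 and 1.34 after semaglutide, and 0.761, 1.21 and 1.83 in the combination. All 6 libraries with semaglutide were below all 6 without, a pattern that 4.02% of the tested genes shared and that no other of the 10 genes showed. The averaged semaglutide difference was -0.80 ± 0.14 (limma adjusted p = 0.00624), from a mean of 2.75 ± 0.556 FPKM (SD, n = 6) without the drug to 1.16 ± 0.402 with it. HIIT against control was 0.017 ± 0.19 (limma adjusted p = 0.987).

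Of the receptors, Kdr (VEGFR2) fell with semaglutide. The 3 controls held 9.64, 6.92 and 8.41 FPKM and the HIIT libraries 7.04, 4.74 and 5.94, where replicate 1 overlapped the controls. Under semaglutide it was at 6.04, 3.16 and 4.16 FPKM and in the combination at 3.75, 4.11 and 3.75. All 6 lay below the lowest control, and semaglutide replicate 1 overlapped the HIIT libraries. The share of all genes that lie below the controls in this way was not counted. The averaged semaglutide difference was -0.64 ± 0.13 (limma adjusted p = 0.0116). Flt1 (VEGFR1) went another way, at 10.9, 9.30 and 9.11 FPKM in controls, 9.05, 7.54 and 6.81 after HIIT, 11.04, 10.7 and 9.57 after semaglutide, and 9.94, 8.16 and 8.56 in the combination. Its HIIT libraries were all below the controls, by a narrow margin (9.05 against 9.11 FPKM), and its semaglutide libraries lay among or above the controls. The averaged semaglutide difference of Flt1 was 0.13 ± 0.082 (limma adjusted p = 0.288).

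The level of Tek (Tie2) was 4.69, 4.46 and 4.22 FPKM in the controls, and 4.48, 3.21 and 4.08 after HIIT. It was at 4.10, 2.55 and 3.06 FPKM after semaglutide and at 2.62, 3.35 and 2.67 in the combination. The libraries with semaglutide were all below the lowest control, and they overlapped those after HIIT alone. The share of all genes with this order was not counted. Tek fell by 0.36 on the log2 scale with semaglutide (SE 0.10, limma adjusted p = 0.0356), a call made in 5 of the 12 fits that each left out 1 library. It was lost without control replicate 1 or 2, HIIT replicate 1 or 3, semaglutide replicate 2 or 3, or combination replicate 3, where the adjusted p reached at most 0.0801 by limma.

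The endothelial junction gene Cdh5, which encodes VE-cadherin, was at 18.7, 15.5 and 17.5 FPKM in controls, 15.4, 12.47 and 9.72 after HIIT, 12.1, 11.9 and 10.9 after semaglutide, and 11.5, 10.99 and 11.6 in the combination. Controls were the highest 3 of the 12 libraries, an order whose share over all genes was not counted. Cdh5 was lower with semaglutide when averaged over exercise, with a difference of -0.31 ± 0.094 (limma adjusted p = 0.0423). The difference was -0.53 ± 0.13 in untrained mice (limma adjusted p = 0.0525) and only -0.10 ± 0.13 in trained mice (0.626). The averaged call held in 2 of the 12 fits with 1 library left out, those without HIIT replicate 3 and without combination replicate 1. In the others the limma adjusted p reached 0.0949. Pecam1 (CD31), an adhesion molecule of the endothelial surface, was at 24.6, 24.9 and 22.7 FPKM in controls and 27.1, 17.997 and 16.1 after HIIT. It was at 21.2, 21.4 and 21.3 FPKM after semaglutide and 22.2, 20.4 and 20.3 in the combination. HIIT replicate 1 was the highest of all and HIIT replicates 2 and 3 the lowest, so the libraries with semaglutide fell inside the range of those without. Its semaglutide difference was -0.048 ± 0.10 (limma adjusted p = 0.775).

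On the pericyte side, Rgs5, a regulator of G-protein signalling that marks pericytes, was at 72.0, 64.5 and 60.9 FPKM in controls, 65.6, 58.8 and 53.3 after HIIT, 53.7, 56.0 and 55.0 after semaglutide, and 48.2, 42.6 and 41.2 in the combination. The 3 combination libraries were the lowest of the 12, an order that was not counted over all genes. Averaged over exercise, Rgs5 fell with semaglutide by 0.34 on the log2 scale (SE 0.069, limma adjusted p = 0.0118). In untrained mice alone its difference of -0.25 ± 0.098 did not pass (limma adjusted p = 0.184). Pdgfrb was at 8.07, 7.88 and 7.09 FPKM in controls, 7.98, 6.34 and 4.80 after HIIT, 6.26, 7.55 and 6.90 after semaglutide, and 6.62, 3.95 and 3.33 in the combination. Combination replicates 2 and 3, which were also the lowest for Vegfa, stood below all others, and the averaged semaglutide difference of -0.27 ± 0.14 did not pass (limma adjusted p = 0.196). Without combination replicate 1 it was -0.39 and passed (limma adjusted p = 0.0284), again with no share of all genes given for that fit.

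In all, 5 of the 10 genes were lower with semaglutide in the averaged comparison (Kdr, Angpt1, Rgs5, Tek and Cdh5) and 0 were higher. Of all tested genes 16.8% were called, 12.2% as lower and 4.69% as higher. The median difference was -0.33 over the 10 genes and -0.083 over all tested genes. Kdr, Angpt1 and Rgs5 stayed called in each of the 12 fits with 1 library left out. After rescaling by trimmed means (TMM), which moved the median of all genes by 0.082 here and by 0.14 for the combination against control, those 3 were still called (Kdr -0.56, Angpt1 -0.73 and Rgs5 -0.24), while Cdh5 at -0.22 and Tek at -0.28 were not. Lower calls then made up 49.2% of all calls in place of 72.2%, with 1002 genes lower and 1036 higher in place of 1296 and 500. Without control replicates 1 and 2 and HIIT replicate 1, the libraries with most hepatocyte transcripts, 1 control was left. Whether the calls hold there cannot be read. The differences in that fit were -0.60 for Kdr, -0.73 for Angpt1 and -0.25 for Rgs5. Hepatocyte markers still summed to 174 FPKM in control replicate 3 and 50.2 in HIIT replicate 2. With semaglutide they summed to at most 6.67 FPKM, so hepatocyte transcripts and the drug cannot be told apart in this fit.

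**Figure D3:**
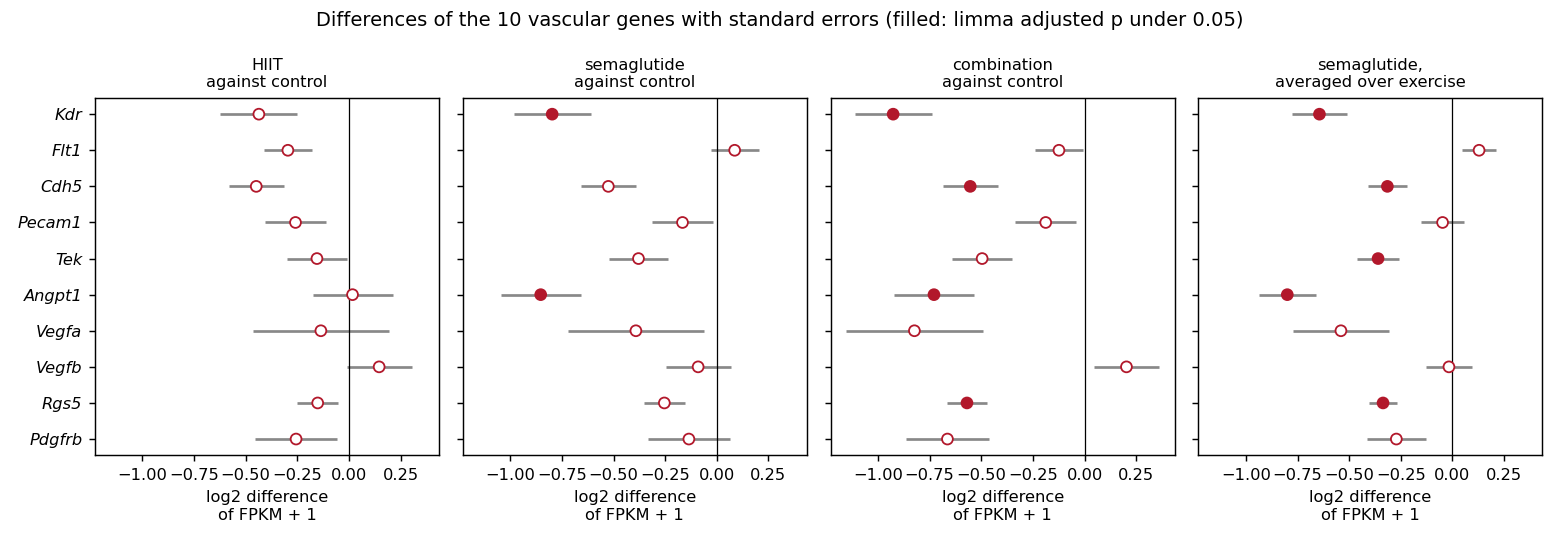
Differences in log2(FPKM + 1) of the 10 genes (horizontal axis) with limma standard errors in 4 comparisons, filled where the limma adjusted p was under 0.05. No gene is filled for HIIT, 2 are for semaglutide, 4 for the combination and 5 for semaglutide averaged over exercise. The last 3 panels share libraries.

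The effect of semaglutide in sedentary mice was tested by semaglutide against control. Kdr (-0.80 ± 0.19, limma adjusted p = 0.0395) and Angpt1 (-0.85 ± 0.19, 0.0360) were lower, 2 of the 10 genes where 3.72% of all genes were called (2.59% lower and 1.13% higher). Cdh5 at -0.53 ± 0.13 missed the threshold (limma adjusted p = 0.0525) and passed without HIIT replicate 1 (0.0196) or 3 (0.0247), and Flt1 was at 0.087. Tek at -0.38 ± 0.15 and Rgs5 at -0.25 ± 0.098 did not pass (limma adjusted p = 0.180 and 0.184). The Kdr call held in 4 of the 12 fits with 1 library left out and the Angpt1 call in 6. Kdr was lost without any 1 control, HIIT replicate 3, semaglutide replicate 2 or 3, or combination replicate 2 or 3, and Angpt1 without control replicate 1 or 2, any 1 semaglutide library or combination replicate 2, with limma adjusted p of at most 0.145 and 0.141. Lower calls made up 69.5% of all calls and 57.1% after TMM rescaling.

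The combination against control gave lower levels of 4 of the 10 genes, where 6.26% of all genes were called (5.18% lower and 1.09% higher): Kdr (-0.93 ± 0.19, limma adjusted p = 0.0290), Rgs5 (-0.57 ± 0.10, 0.0230), Cdh5 (-0.55 ± 0.13, 0.0378) and Angpt1 (-0.73 ± 0.19, 0.0485). Tek at -0.50 ± 0.15 and Pdgfrb at -0.66 ± 0.20 did not pass (limma adjusted p = 0.0657 and 0.0714), nor did Vegfa at -0.82 ± 0.33 (0.150). Without combination replicate 1, Vegfa was at -1.24 and Pdgfrb at -0.90, and both passed (limma adjusted p = 0.0125 and 0.0088). The share of all genes called in that fit is not given here. Over the 12 fits with 1 library left out Vegfa ran from -1.24 to -0.55. White adipocyte markers summed to 713 FPKM in combination replicate 1 against 191 and 175 in replicates 2 and 3. Macrophage markers summed to 101 against 28.9 and 27.0 FPKM. Whether this other tissue bears on the calls was not tested. Kdr and Rgs5 kept their calls in 8 of the 12 fits with 1 library left out and lost them without control replicate 1 or 2 or combination replicate 2 or 3 (limma adjusted p of at most 0.105 and 0.0978). The Cdh5 call held in 4 of these fits, being lost without any 1 control, any 1 semaglutide library or combination replicate 2 or 3, and the Angpt1 call held only without HIIT replicate 3 (limma adjusted p of at most 0.132 and 0.158). After TMM rescaling Kdr (-0.79) and Rgs5 (-0.41) were still called, and lower calls made up 54.4% of all calls in place of 82.6%. Without combination replicates 2 and 3, which held the lowest Vegfa and Pdgfrb, 0 of the 10 genes and 0 of all genes passed limma, 1 combination library being left.

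Training alone was tested by HIIT against control. Limma called 0 of the 10 genes and 0 of the 10666 tested (0%), with 952 genes (8.93%) at an unadjusted p under 0.05. Cdh5 (-0.45 ± 0.13), Flt1 (-0.30 ± 0.12) and Kdr (-0.44 ± 0.19) were among those 952, and their limma adjusted p were 0.437, 0.478 and 0.519. The 3 HIIT libraries lay below the 3 controls for Cdh5 and Flt1, by narrow margins. The highest HIIT library and the lowest control were at 15.37 and 15.50 FPKM for Cdh5, and at 9.05 and 9.11 for Flt1. The share of all genes that separate in this way was not counted, so this describes the values only. HIIT averaged over semaglutide also gave 0 calls among all genes (0%) with 1341 genes (12.6%) at an unadjusted p under 0.05, among them Rgs5 (-0.23), Flt1 (-0.25), Pdgfrb (-0.39) and Cdh5 (-0.24), each with a limma adjusted p of at least 0.350. Pdgfrb passed there without combination replicate 1 (-0.51, limma adjusted p = 0.0382), with no share of all genes given for that fit.

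What each intervention added to the other was compared next. In trained mice, semaglutide (combination against HIIT) was accompanied by lower Rgs5 (-0.42 ± 0.10, limma adjusted p = 0.0451), the only call among the 10 genes, where 3.01% of all genes were called (1.96% lower and 1.05% higher). It held in 1 of the 12 fits with 1 library left out, that without combination replicate 1, with a limma adjusted p of at most 0.163 in the others. It was lost after TMM rescaling (-0.29, limma adjusted p = 0.0732) and with no filter on low values (-0.42, 0.0648), and lower calls were 65.1% of all calls against 36.7% after TMM rescaling. Angpt1 was at -0.75 (limma adjusted p = 0.0592) and Kdr at -0.49 (0.126). Vegfa at -0.69 (limma adjusted p = 0.205) and Pdgfrb at -0.41 (0.210) passed without combination replicate 1, at -1.11 and -0.65 (0.0182 and 0.0289). Training on top of semaglutide (combination against semaglutide) gave 0 calls among the 10 genes and 1 among all genes (0.00938%), with 1292 (12.1%) at an unadjusted p under 0.05. The nearest were Rgs5 at -0.32 and Pdgfrb at -0.53 (limma adjusted p = 0.309 and 0.352), and Pdgfrb passed without combination replicate 1 (-0.77, 0.0256). For both comparisons, calls over all genes also moved with the library left out. Whether the passes of Vegfa and Pdgfrb go beyond that was not tested. The interaction of HIIT and semaglutide was called by limma for 0 of all genes (0%), with 822 genes (7.71%) at an unadjusted p under 0.05, of which Cdh5 (0.42 ± 0.19, limma adjusted p = 0.632) was 1. The effect of semaglutide was therefore not shown to differ between trained and untrained mice for any of the 10 genes.

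Since both are endothelial VEGF receptors, Kdr was set against Flt1 within each library, which takes out what both genes share, such as depth. The FPKM ratio of Kdr to Flt1 was 0.850 ± 0.0946 in controls, 0.759 ± 0.122 after HIIT, 0.426 ± 0.125 after semaglutide and 0.440 ± 0.0637 in the combination (SD, n = 3). All 6 libraries with semaglutide (0.296 to 0.547) were below all 6 without (0.629 to 0.923). On the log2(FPKM + 1) scale the difference was -0.77 (two-sided exact permutation test within trained and untrained libraries, p = 0.005, the smallest that its 400 arrangements can give, and 0.025 adjusted over 5 ratios). Kdr also fell against Pecam1, from a ratio of 0.347 ± 0.061 in controls and 0.297 ± 0.0616 after HIIT to 0.209 ± 0.0696 after semaglutide and 0.185 ± 0.0163 in the combination (difference -0.60, exact p = 0.01, adjusted 0.025). Flt1 and Pecam1 were themselves not called for semaglutide (averaged differences of 0.13 and -0.048), so both ratios largely restate the fall of Kdr. Kdr was not set against Tek (-0.36) or Cdh5 (-0.31), which also fell.

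The other 3 ratios did not pass as tested. Angpt1 against its receptor Tek differed by -0.44 (exact permutation p = 0.035, adjusted 0.0583). That difference passed with log2(FPKM + 0.1), at -0.76 (exact permutation, adjusted p = 0.0333), and without combination replicate 3, at -0.55 (0.025). Vegfa against Vegfb differed by -0.52 (exact permutation p = 0.115, adjusted 0.144), and the FPKM ratio ranged from 0.332 to 1.04 within the combination group. Without combination replicate 1 that difference was -0.79 and passed (exact permutation, adjusted p = 0.0333). The FPKM ratio of the pericyte genes Rgs5 to Pdgfrb was 8.57 ± 0.374 in controls, 9.53 ± 1.45 with HIIT, 7.98 ± 0.579 with semaglutide and 10.1 ± 2.61 in the combination, whose replicate 1 was at 7.27 and replicates 2 and 3 at 10.8 and 12.4. The averaged difference with semaglutide was -0.064 on the log2(FPKM + 1) scale (exact permutation p = 0.56).

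**Figure D4:**
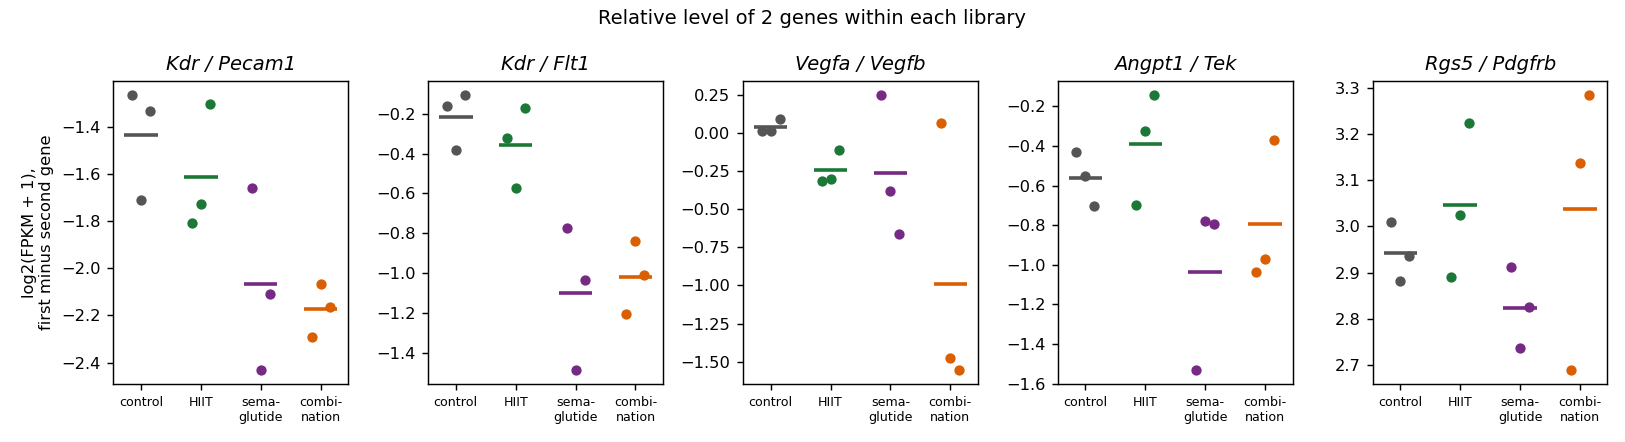
Difference in log2(FPKM + 1) between the first and the second gene of each pair (vertical axes), 1 point per library with a bar at the group mean. For Kdr against Flt1 the 6 libraries with semaglutide lie below the 6 without, while for Vegfa against Vegfb the combination libraries are split.

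Wider lists place these genes in their pathways, here for semaglutide averaged over exercise. The background for each count is the share of all tested genes called in this comparison, 12.2% lower and 4.69% higher. Of 28 endothelial genes, 14 fell, 0 rose and 14 did not pass, with a median of -0.35 against -0.083 for all genes. They include Kdr, Tek and Cdh5. The sialomucins Cd34 (-0.70 ± 0.11, limma adjusted p = 0.00391), Podxl (-0.66 ± 0.13, 0.00996) and Emcn (-0.57 ± 0.13, 0.0152), all of the endothelial surface, and the adhesion receptor Adgrf5 (-0.37 ± 0.07, 0.0108) had the smallest p outside the 10 genes. Cd34, which fibroblast-like cells also express, was at 17.4 ± 4.0 FPKM without and 10.1 ± 0.86 with semaglutide (SD, n = 6). TMM rescaling left 7 of the 28 called. Leaving out control replicates 1 and 2 and HIIT replicate 1 left 1 control, so whether the calls hold there cannot be read. The median in that fit was -0.24 (all genes -0.034). With TMM, 1002 of all tested genes were lower and 1036 higher, in place of 1296 and 500. These totals are the background for the TMM counts of the lists. The summed level was 224 to 246 FPKM in controls, 164 to 275 after HIIT, 164 to 186 after semaglutide and 150 to 174 in the combination, and HIIT replicate 1 had the highest sum. The hepatocyte sums given above moved with these groups, and slow-fibre sums also reached their highest values in controls. In this comparison 5 non-vascular lists had larger median differences than the endothelial one: -3.10 for hepatocytes (8 of 8 genes fell), -1.10 for fibroblasts (5 of 7 fell), -1.01 for slow fibres (1 of 8), -0.88 for white adipocytes (1 of 8) and -0.69 for macrophages (0 of 9 called by limma, 9 of 9 below 0). The 9 macrophage markers summed to 36.8 to 117 FPKM in controls, 34.9 to 177 with HIIT, 23.6 to 37.1 with semaglutide and 27.0 to 101 in the combination. The part of these other cell types in the endothelial counts was not tested.

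Among 12 pericyte genes, 6 fell and 0 rose (median -0.34), where 12.2% of all genes fell. Rgs5 was 1 of them, beside Ndufa4l2 (-0.65 ± 0.13, limma adjusted p = 0.0103), a mitochondrial protein that hypoxia induces, Higd1b (-0.57 ± 0.12, 0.0116) and Notch3 (-0.37 ± 0.11, 0.0446), the Notch receptor of mural cells. Vtn fell most (-1.14 ± 0.20, 0.00735), and it encodes vitronectin, which the liver also makes. Its controls held 25.7, 33.0 and 13.9 FPKM and the semaglutide libraries 7.51, 7.16 and 7.07, in the same order of control libraries as the hepatocyte sums. With TMM rescaling 4 of the 12 were called. Without control replicates 1 and 2 and HIIT replicate 1, 1 control was left, so whether the calls hold there cannot be read.

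In the angiopoietin-Tie list 4 of 7 tested genes fell and 0 rose (median -0.38), against the same 12.2% of all genes: Angpt1, Tek, the orphan receptor Tie1 (-0.40 ± 0.12, limma adjusted p = 0.0475) and the endothelial phosphatase Ptprb (-0.31 ± 0.09, 0.0325), which acts on Tie2. Tek, Tie1 and Ptprb are also among the 28 endothelial genes above, so their calls are counted in both lists. After TMM rescaling 1 of the 4 was called. Angpt2, the antagonist of Angpt1, was at 0.946 ± 0.17 FPKM without and 0.756 ± 0.15 with semaglutide and did not pass (-0.15 ± 0.10, limma adjusted p = 0.294).

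The VEGF list of ligands and receptors had 9 tested genes, of which 1 fell (Kdr) and 1 rose, near the shares of all genes. The riser was Vegfd, a ligand of VEGFR3 that can also bind VEGFR2 in humans. It was at 2.12 ± 0.32 FPKM in controls, 2.13 ± 0.24 after HIIT, 4.76 ± 1.82 after semaglutide and 4.35 ± 0.34 in the combination (SD, n = 3). The difference was 0.81 ± 0.13 (limma adjusted p = 0.00445), with the 6 libraries with semaglutide (3.35 to 6.81 FPKM) all above the 6 without (1.78 to 2.40), as for 2.28% of tested genes. The co-receptor Nrp1 was at -0.26 ± 0.11 (limma adjusted p = 0.126). Whether the calls of Kdr and Vegfd hold without control replicates 1 and 2 and HIIT replicate 1 cannot be read, as 1 control was left.

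The remaining lists had few calls, mostly near the shares over all tested genes (12.2% lower, 4.69% higher), and their counts are not a result about the lists. Of 10 Notch genes, 1 fell and 0 rose: Hes1, a Notch target (-0.57 ± 0.14, limma adjusted p = 0.0223). Among 14 endothelial transcription factors 2 fell, the ETS factors Erg (-0.41 ± 0.11, 0.0323) and Ets1 (-0.44 ± 0.13, 0.0396). Foxo1, a regulator of endothelial quiescence that muscle fibres also express in fasting, rose by 0.98 ± 0.22 (limma adjusted p = 0.0162), from 4.41 ± 1.3 to 9.95 ± 3.6 FPKM (SD, n = 6). Of 10 hypoxia and PGC-1 regulators of Vegfa, 2 rose and 0 fell, the HIF partner Arnt (0.31 ± 0.06, 0.0102) and the oxygen-sensing hydroxylase Egln3 (0.54 ± 0.16, 0.0393). Other angiogenic signals numbered 25 tested genes, of which 2 fell and 1 rose. The chemokine Cxcl12 (-0.75 ± 0.15, 0.0108) and the matrix protein Sparcl1 (-0.52 ± 0.10, 0.0108) were lower, and the matricellular Ccn1 was higher (1.11 ± 0.18, 0.00594).

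**Figure D5:**
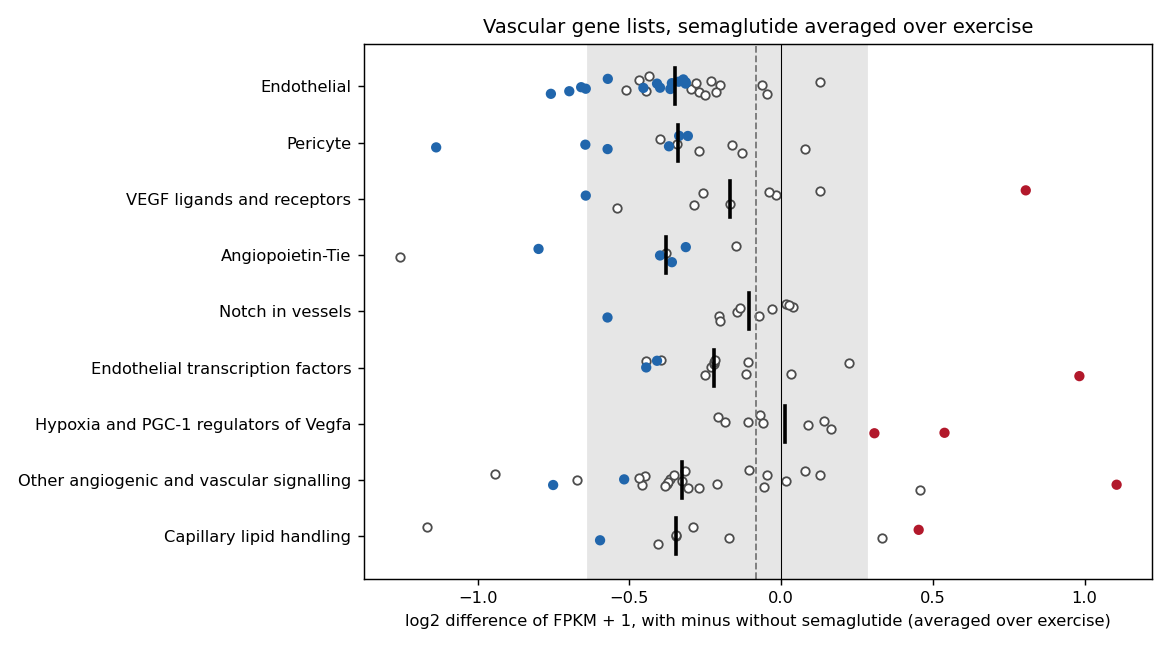
Differences in log2(FPKM + 1) with minus without semaglutide, averaged over exercise (horizontal axis), for each tested gene of 9 lists, blue where lower and red where higher at a limma adjusted p of 0.05. Black ticks are list medians, the dashed line is the median of all genes (-0.083) and the grey band their 5th to 95th percentile; endothelial and pericyte medians lie at -0.35 and -0.34.

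For HIIT against control, each of these lists had 0 called genes. The endothelial list had 23 of 28 differences below 0 and a median of -0.18 against -0.025 for all genes, with Adgrf5 at -0.48 ± 0.10 and Ptprb at -0.32 ± 0.12 having the smallest p (limma adjusted p = 0.437 and 0.475). Ppargc1a, the PGC-1α coactivator that training is known to induce, was at 0.38 ± 0.15 (limma adjusted p = 0.467).

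Outside the 10 genes, the 5 of 10656 genes whose pattern over the 12 libraries was closest to that of Kdr, by mean absolute difference of centred log2(FPKM + 1), were Mast4 at 0.143, Dixdc1 at 0.145, and Gm45717, Adgrf5 and Eng at 0.154 to 0.155. Eng, which encodes the TGF-beta co-receptor endoglin, was at 14.0, 11.7, 9.41 and 8.35 FPKM in the group means of control, HIIT, semaglutide and combination. Among the 9 others of the 10 genes Tek was nearest to Kdr, at 0.153, closer than the last 3 of these, and Vegfb farthest, at 0.393.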

How the data were processed

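Muscle RNA from 12 db/db mouse libraries was measured as deposited FPKM. Libraries were stranded, poly(A)-selected and read from both ends, per the labels' protocols. The tools named in the submitters' processing notes, without roles, were StringTie 2.1.4, featureCounts 2.0.1, STAR 2.7.9a, Trimmomatic 0.36, FastQC and CASAVA, with the build GRCm39. Which of them gave the authors' FPKM, and with which annotation, was not given in the sources used here.

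Depth was estimated from the smallest FPKM steps (17.2 to 21.3 M fragments per library). FPKM are not counts, so log2(FPKM + 1) was tested by limma 3.58.1 under R 4.3.3 with a trended, robust prior, 1 mean per group and all 12 libraries, for genes at 1 FPKM or more in at least 3 libraries. This scale understates changes of weakly expressed genes. Adjustment was by Benjamini-Hochberg over 10666 genes, two-sided, with calls at an adjusted p of 0.05, and the test was tried on simulated data. Comparisons against the same group share its libraries. No label ties each library to an animal of its own, and p-values then reflect only how these samples spread.

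Ratios of 2 genes were tested by exact permutation within exercise strata. Alternatives were log2(FPKM + 0.1), TMM factors, no filter, a replicate block and leaving out each library. Fits without the 3 libraries richest in hepatocyte transcripts (for counts) and without combination replicates 2 and 3 were chosen after seeing the data. The 10 genes and all lists were chosen with earlier results of these data known. All 10 are named, and of each list the called genes with the smallest p, up to 4 beside the 10, or the 2 with the smallest p where none was called. Angpt2, Nrp1 and Ppargc1a were chosen after their values were seen. Promoters are from RefSeq, GRCm38.p6.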

Additional observations from a re-analysis of the deposited data

How the results depend on the processing

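Of the 10 genes, 2 were called for semaglutide against control, 4 for the combination against control, 1 for the combination against HIIT and 5 for semaglutide averaged over exercise. TMM rescaling gave 2, 2, 0 and 3, log2(FPKM + 0.1) changed none of these counts by over 1.5 times, and no filter on low values gave 0, 2, 0 and 3. Without combination replicates 2 and 3 the counts were 0, 0, 0 and 1, and without control replicates 1 and 2 and HIIT replicate 1 they were 0 for the combination against HIIT and 0 for semaglutide averaged. With 1 control left, the latter counts were not made for comparisons with control, for the interaction or for HIIT averaged. Over all genes, the fit without combination replicates 2 and 3 called 110 for semaglutide against control, 0 for the combination against control, 0 for the combination against HIIT and 295 for semaglutide averaged. The fit without the 3 hepatocyte-rich libraries called 49 for the combination against HIIT and 162 for semaglutide averaged. The combination against HIIT had 662 calls with TMM and 195 with no filter. The single call for the combination against semaglutide went to 0 with log2(FPKM + 0.1), no filter, the replicate block and both smaller sets.

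Leaving out 1 library at a time gave 0 members called for HIIT against control, 0 to 3 for semaglutide against control, 0 to 5 for the combination against control, 0 to 3 for the combination against HIIT, 0 to 1 for the combination against semaglutide, 3 to 7 for semaglutide averaged, 0 to 1 for HIIT averaged and 0 for the interaction. All calls ran from 0 to 1, 33 to 466, 4 to 1646, 18 to 1574, 0 to 557, 870 to 2548, 0 to 253 and 0 to 24 in that order. For the combination against control, 0 of the 10 were called without control replicate 1 or 2 or combination replicate 2 or 3, and 2 without control replicate 3 or any 1 semaglutide library. For semaglutide against control, 0 were called without control replicate 1 or 2, semaglutide replicate 2 or 3 or combination replicate 2, 1 without control replicate 3, semaglutide replicate 1 or combination replicate 3, and 3 without HIIT replicate 1. The combination against HIIT had 0 in every such fit except that without combination replicate 1 (3). Semaglutide averaged had 3 without control replicate 1 or 2, HIIT replicate 1, semaglutide replicate 2 or 3 or combination replicate 3, and 7 without combination replicate 1. The causes were not tested.

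Ratio differences ran, on leaving out 1 library, from -0.70 to -0.50 for Kdr against Pecam1, -0.85 to -0.68 for Kdr against Flt1, -0.79 to -0.38 for Vegfa against Vegfb, -0.55 to -0.32 for Angpt1 against Tek and -0.13 to 0.023 for Rgs5 against Pdgfrb. With log2(FPKM + 0.1), Angpt1 against Tek was -0.76 and passed (exact permutation, adjusted p = 0.0333). Equal replicate numbers did not pair the libraries (r of -0.23 to 0.29 over 18 pairs, and 2 of 12 libraries closest to their own number). With the replicate block, Kdr against Pecam1 (-0.60) and Kdr against Flt1 (-0.77) had an adjusted p of 0.0521 by exact sign flips, whose smallest raw p is 0.0312.

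Signs changed for some differences that were not called. Flt1 in the combination against control was 0.023 with TMM and 0.026 without combination replicates 2 and 3, where Vegfa was 0.014 and Vegfb -0.011. For semaglutide averaged, Pecam1 was 0.047 with TMM and 0.099 without the hepatocyte-rich libraries, and Vegfb was 0.080 and 0.044. Leaving out 1 library gave -0.13 to 0.11 for Angpt1 in HIIT against control (0.297 without the hepatocyte-rich libraries), -0.20 to 0.031 for Vegfb in semaglutide against control, -0.12 to 0.059 for Pecam1 and -0.088 to 0.044 for Vegfb in semaglutide averaged. Depth limits Angpt1 most, whose lowest value rests on about 61.8 fragments.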

Other observations

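Of 9 tested genes of capillary lipid handling, 1 rose and 1 fell with semaglutide averaged over exercise and 7 did not pass, near the shares of all genes (4.69% higher and 12.2% lower). The water channel Aqp1 rose (0.45 ± 0.11, limma adjusted p = 0.0188), from 95.002 ± 17 to 129 ± 9.1 FPKM (SD, n = 6), while Cav1, which encodes the caveolar coat protein of endothelial and fat cells, fell (-0.60 ± 0.19, limma adjusted p = 0.0494), from 75.5 ± 16 to 50.5 ± 16 FPKM. Both were also called after TMM rescaling. Rgcc, a regulator of the cell cycle, was the only called gene of this list in the combination against control. It was called higher there, as were 1.09% of all tested genes. Its group means were 43.2, 69.1, 60.6 and 77.8 FPKM in control, HIIT, semaglutide and combination.

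The 6 tested markers of vascular smooth muscle held 0 called genes by limma for semaglutide averaged over exercise (median -0.33), and the 4 tested lymphatic markers held 0 (median -0.35). The 7 fast-fibre markers held 0 calls, with a median of 0.0042.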
